A study of Mus musculus with 30 samples.

Results

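The 10 genes studied here act in cellular iron uptake, storage and regulation, and their mRNAs were followed through erythroid differentiation of murine erythroleukemia (MEL) cells, a mouse red cell precursor line, with and without the mitochondrial transporter Abcb10. The members, 10 of the 54532 genes in the count table, were named for their known roles: *Tfrc*, *Tfr2*, *Steap3* and *Slc11a2* for uptake, *Fth1*, *Ftl1* and *Ncoa4* for storage and its turnover, *Slc40a1* for export, and *Ireb2* and *Aco1* for regulation. RNA was sequenced from WT MEL cells and from MEL cells labelled as Abcb10 knockout (Abcb10-null below). Both were untreated at day 0 or had been kept in 1.5% DMSO, which starts their erythroid program, for 2 or 5 days. Each of the 6 groups held 5 libraries, labelled as biological replicates. By the study's own account the Abcb10-null libraries came from 1 clone, grown from a single cell after lentiviral delivery of CRISPR/Cas9, so a difference between genotypes cannot be told apart from one between this clone and the WT line.

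Erythroid cells take up most of their iron as diferric transferrin. The transferrin receptor (*Tfrc*) carries it into endosomes, a ferrireductase (*Steap3*) reduces it there, and a divalent metal transporter (*Slc11a2*, DMT1) moves it into the cytosol. Iron that is not used for heme is stored in ferritin, built of heavy (*Fth1*) and light (*Ftl1*) chains, and the cargo receptor *Ncoa4* delivers ferritin to lysosomes when iron is to be released. Ferroportin (*Slc40a1*) is the known iron exporter of cells. The iron regulatory proteins, IRP1 (*Aco1*) and IRP2 (*Ireb2*), bind a short hairpin, the iron-responsive element, when iron is scarce. Bound to the 5′ end of an mRNA they block its translation, and bound to the 3′ end of the *Tfrc* mRNA they protect it from decay. Sequencing of RNA reads mRNA levels only, so neither translation nor IRP binding was measured.

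The hairpins are shown because they are the element that the iron regulatory proteins bind, and 5 of the 10 members held one. The untranslated stretches of the annotated transcripts (GRCm38) were searched on the sense strand for C, 5 bases, CAGTGN and 5 bases, with at least 4 of the 5 base pairs formed in the upper stem, G-U pairs allowed. The loop CAGTGN is in capitals, and 6 bases of flank stand on each side.
Tfrc 3′ UTR, chr16:32631219-32631247, plus strand: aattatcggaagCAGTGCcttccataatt
Tfrc 3′ UTR, chr16:32631598-32631626, plus strand: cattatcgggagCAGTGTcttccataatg
Tfrc 3′ UTR, chr16:32631663-32631691, plus strand: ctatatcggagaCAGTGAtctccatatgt
Tfrc 3′ UTR, chr16:32631710-32631738, plus strand: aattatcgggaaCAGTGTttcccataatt
Slc11a2 3′ UTR, chr15:100395153-100395181, minus strand: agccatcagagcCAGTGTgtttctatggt
Fth1 5′ UTR, chr19:9982732-9982760, plus strand: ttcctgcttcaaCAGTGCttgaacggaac
Ftl1 5′ UTR, chr7:45459779-45459807, minus strand: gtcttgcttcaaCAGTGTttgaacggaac
Slc40a1 5′ UTR, chr1:45925465-45925493, minus strand: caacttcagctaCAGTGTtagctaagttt

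*Tfrc* held 4 matches, all in its 3′ UTR, each with 5 of 5 upper pairs. Upper stems were also complete in *Fth1*, *Ftl1* and *Slc40a1*, whose matches lie in the 5′ UTR. That of *Slc11a2*, in the 3′ UTR, had 4 of 5 upper pairs and 2 of 6 possible pairs in the flanks. Reads were counted per gene, so *Slc11a2* mRNAs with and without this 3′ end were counted together. No match was found in *Tfr2*, *Steap3*, *Ireb2*, *Aco1* or *Ncoa4*. Of all 21741 protein-coding genes with an untranslated stretch, 1074 (4.94%) held a match, which describes the letters and shows no binding.

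Library totals ran from 9906783 to 20157768 counts (median 16492116.5), and all 10 members passed the filter on low counts in each of the 11 comparisons. Levels are given as CPM, each gene's count as a share of the scaled library total. The edited gene, *Abcb10*, stood at 112 to 126, 475 to 661 and 1152 to 1264 CPM in WT at days 0, 2 and 5 and at 67.2 to 79.4, 162 to 312 and 177 to 237 in Abcb10-null libraries, which were lower without overlap by 1.61-, 2.91- and 5.81-fold. The summed level of 10 erythroid markers was alike in both genotypes at day 0 (940 to 1080 CPM in WT and 943 to 1080 in Abcb10-null) and differed at day 5 (3710 to 5640 against 1960 to 2820), with no marker at 0 in any group. WT day 5 replicate 5 stood apart from its group, with a sum of 3712 where the other WT day 5 libraries had 5023 to 5637. Abcb10-null day 2 replicate 2 also stood apart, with 1137 against 1472 to 1837 in the others of its group. Sums of macrophage (8 genes, at most 14.9 CPM), lymphocyte (5 genes, 6.02), fibroblast (5 genes, 8.93) and hepatocyte markers (3 genes, 9.58) were low beside the erythroid sum. The lymphocyte and fibroblast maxima both came from Abcb10-null day 5 replicate 4, the library with the lowest total. Libraries of the other groups reached at most 1.9 and 4.55 CPM for these sums. That replicate also had the highest macrophage sum of its group, 14.6 CPM. The cause was not tested. Megakaryocyte markers summed to 155 to 606 CPM, nearly all from *Itga2b* and *Pf4*, with *Gp1bb* at or near 0. How far the erythroid sum accounts for the differences below was not tested, and in bulk RNA fewer cells of a type cannot be told apart from less RNA per cell.

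At day 0, before DMSO, 4 of the 10 members were higher in Abcb10-null cells (*Tfrc*, *Slc40a1*, *Aco1* and *Ncoa4*) and 1 was lower (*Ftl1*), where 19.7% of all genes tested were called higher and 16.2% lower at an adjusted p under 0.05 (edgeR's quasi-likelihood test, adjusted by Benjamini and Hochberg's method across the genes tested, as for each adjusted p below). At day 2, 1 was higher (*Ncoa4*) and 4 were lower (*Tfrc*, *Fth1*, *Slc11a2* and *Steap3*), against 14.9% and 16.9% of all genes. By day 5, 5 were lower (*Tfrc*, *Fth1*, *Slc11a2*, *Slc40a1* and *Steap3*) and 1 was higher (*Aco1*), against 17.8% and 19.8%. The members' median log2 fold change went from 0.16 at day 0 to -0.21 at day 2 and -0.48 at day 5, while that over all genes stayed at -0.00, -0.00 and -0.02. The scaling of the libraries holds the bulk of all genes near 0, here and in each comparison below, so their median is no independent background. *Tfr2* and *Ireb2* were called at none of the 3 days. The day 0 count was 1 (*Slc40a1*) in place of 5 when all 30 libraries were fitted together. The share of all genes called in that fit is not given here.

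**Figure D1:**
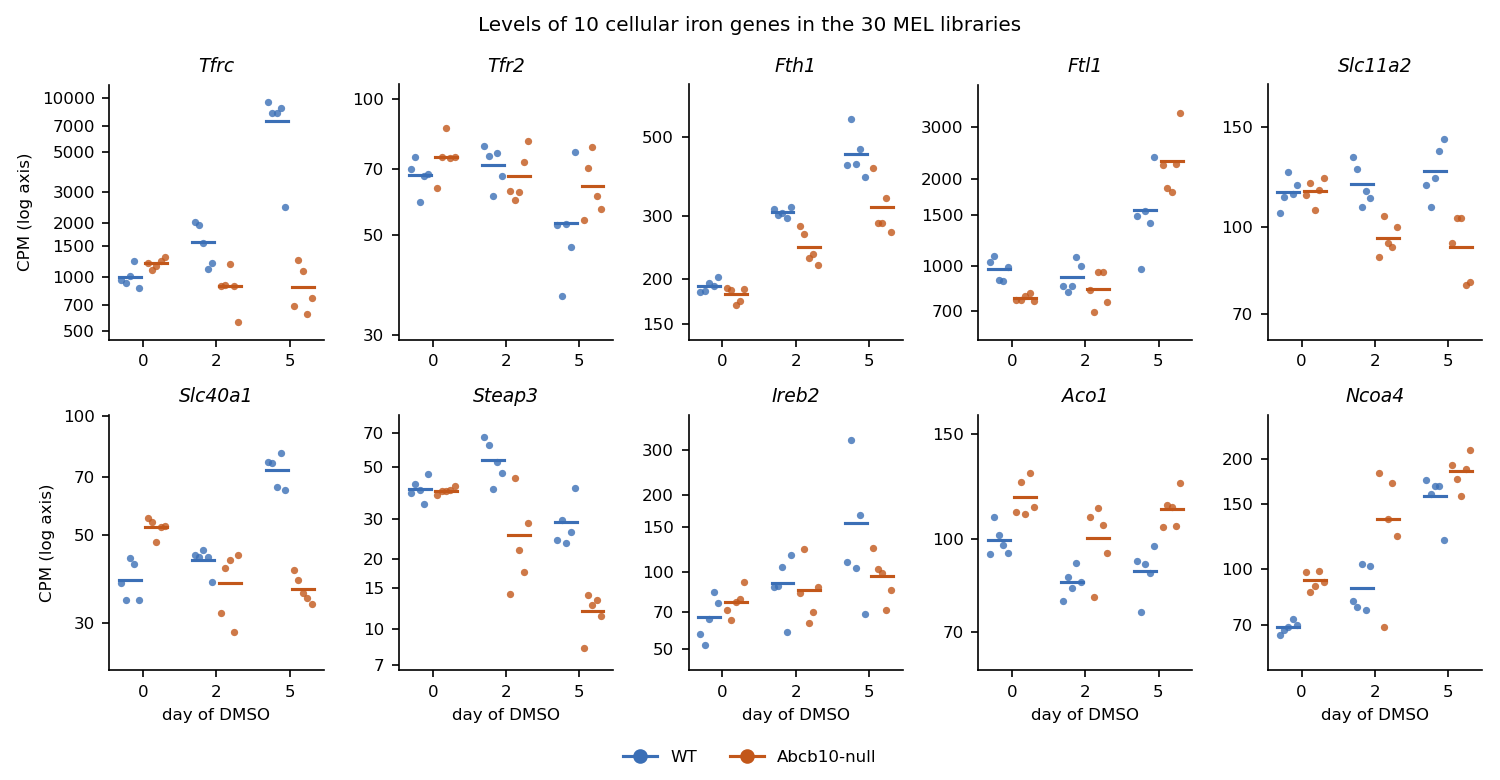
Levels of the 10 members in each of the 30 libraries, in CPM on a log axis whose range differs between panels, against the day of DMSO treatment. Points are libraries and bars are group means (n = 5). Tfrc in WT rises to a mean of 7450 CPM at day 5 with 1 library at 2485, while Abcb10-null libraries stay between 561 and 1307 at every day.

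Of the uptake genes, *Tfrc* (ENSMUSG00000022797, chr16:32608920-32632794 in GRCm38) differed most. WT libraries held 969, 929, 1019, 1232 and 868 CPM at day 0, 2036, 1973, 1565, 1115 and 1199.7 at day 2, and 9534, 8212, 8237, 8783 and 2485 at day 5 (replicates 1 to 5 in order, here and below). Abcb10-null libraries held 1211, 1094, 1151, 1230.5 and 1307 at day 0, 899, 909.7, 1194, 892 and 561 at day 2, and 690.2, 1257, 1086, 628 and 764 at day 5. At day 5 every WT library lay above every Abcb10-null library, the low WT replicate 5 included, and on the earlier days the genotypes overlapped. The erythroid marker sums given above were likewise apart at day 5. In WT, *Tfrc* rose 7.43-fold from day 0 to day 5 (log2 fold change 2.89, SE 0.29, adjusted p = 1.27e-06). In Abcb10-null cells it fell over the same days (log2 fold change -0.43, SE 0.16, adjusted p = 0.0257), a call lost without Abcb10-null day 0 replicate 5 or day 5 replicate 1, 4 or 5 (adjusted p up to 0.068), by DESeq2 and in the fit over all 30 libraries (up to 0.119).

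The genotypes began with a small difference in the other direction: *Tfrc* was 1.19-fold higher in Abcb10-null cells at day 0 (log2 fold change 0.25, SE 0.08, adjusted p = 0.0202). That call was lost without WT day 0 replicate 1, 2 or 5 (adjusted p up to 0.0741) and in the fit over all 30 libraries (0.558). *Tfrc* was 1.84-fold lower at day 2 (log2 fold change -0.88, SE 0.22, adjusted p = 0.0114) and 8.50-fold lower at day 5 (log2 fold change -3.09, SE 0.33, adjusted p = 2.68e-05). Without WT day 5 replicate 5, the day 5 difference was -3.32 (adjusted p = 2.34e-07). The change from day 0 differed between the genotypes by -1.07 (SE 0.24, adjusted p = 0.00357) on the log2 scale at day 2 and by -3.32 (SE 0.35, adjusted p = 2.46e-07) at day 5.

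*Tfr2* (ENSMUSG00000029716, chr5:137569840-137587481 in GRCm38), the second transferrin receptor, known as an iron sensor and as a partner of the erythropoietin receptor in red cell precursors, was not called in any of the 11 comparisons. WT libraries held 70.2, 74.3, 59.2, 67.6 and 68.2 CPM at day 0 and 52.7, 36.7, 53.0, 47.2 and 76.2 at day 5, and Abcb10-null libraries 63.6, 74.4, 86.2, 74.0 and 74.5 at day 0 and 54.1, 70.5, 78.2, 61.0 and 57.2 at day 5. The ranges overlapped at each day. Abcb10-null against WT gave 0.13 (SE 0.08, adjusted p = 0.227) at day 0, -0.13 (SE 0.12, adjusted p = 0.431) at day 2 and 0.27 (SE 0.17, adjusted p = 0.227) at day 5. Leaving out WT day 5 replicate 5, the highest WT library of that day, made the day 5 difference 0.42 with an adjusted p of 0.0292, and the WT change from day 0 to day 5 -0.52 (0.00105) in place of -0.36 (SE 0.15, adjusted p = 0.0537). With all libraries kept, that fall in WT passed in 4 of the 6 other settings (adjusted p down to 0.0164).

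*Steap3* (ENSMUSG00000026389, chr1:120190757-120272705 in GRCm38), the endosomal ferrireductase, stood at 40.4 ± 4.47 CPM in WT libraries of day 0 and 39.6 ± 1.30 in Abcb10-null ones (mean ± SD, n = 5), with a log2 fold change of -0.04 (SE 0.08, adjusted p = 0.747). At day 2 the WT libraries held 67.3, 62.1, 40.2, 52.9 and 47.3 CPM and the Abcb10-null libraries 14.1, 44.8, 21.9, 17.7 and 28.9. At day 5 the WT libraries held 24.3, 29.7, 23.6, 26.2 and 40.7 and the Abcb10-null libraries 8.34, 14.1, 12.8, 13.4 and 11.4. The genotypes were apart in all 5 libraries at day 5, and at day 2 in all but Abcb10-null replicate 2. Abcb10-null cells were 2.19-fold lower at day 2 (log2 fold change -1.13, SE 0.28, adjusted p = 0.0102) and 2.42-fold lower at day 5 (log2 fold change -1.28, SE 0.19, adjusted p = 0.000227). In WT the mRNA rose to day 2 (log2 fold change 0.41, SE 0.13, adjusted p = 0.0147, but 0.0827 in the fit over all 30 libraries) and then fell (log2 fold change -0.90, SE 0.17, adjusted p = 0.00192). In Abcb10-null cells it fell 3.29-fold from day 0 to day 5 (log2 fold change -1.72, SE 0.12, adjusted p = 6.06e-09), and the change from day 0 differed between genotypes at day 2 by -1.04 (SE 0.29, adjusted p = 0.0158) and at day 5 by -1.23 (SE 0.20, adjusted p = 5.88e-05).

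*Slc11a2* (ENSMUSG00000023030, chr15:100387898-100425072 in GRCm38), the transporter that moves iron out of the endosome, stood at 115 ± 7.15 CPM in WT libraries of day 0 and 116 ± 5.78 in Abcb10-null ones (mean ± SD, n = 5). At day 2 the WT libraries held 133, 126, 108, 116 and 112 CPM, all above the Abcb10-null libraries at 88.3, 105, 93.7, 91.9 and 99.9. At day 5 they held 119, 109, 122, 136 and 143 against 93.6, 104, 103, 78.9 and 80.0, again without overlap. The difference was -0.37 (SE 0.11, adjusted p = 0.0217) at day 2 and -0.46 (SE 0.11, adjusted p = 0.00717) at day 5. The day 2 call was lost without WT day 2 replicate 1 or 2 or Abcb10-null day 2 replicate 1 or 4 (adjusted p up to 0.0637) and without the filter on low counts (0.145). *Slc11a2* was not called between any days in WT and fell from day 0 to day 5 in Abcb10-null cells (log2 fold change -0.32, SE 0.09, adjusted p = 0.00535). The change from day 0 differed by -0.31 (SE 0.11, adjusted p = 0.048) at day 2, a call lost in 10 of 20 fits that left out 1 library (adjusted p up to 0.0954). It differed by -0.44 (SE 0.13, adjusted p = 0.0138) at day 5, with an adjusted p of 0.169 without the filter on low counts. The exons of *Slc11a2* share 6.33% of their bases with *Gm5475* on the opposite strand, which averaged 0.0642 CPM.

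The mRNA of ferroportin, the exporter (*Slc40a1*, ENSMUSG00000025993, chr1:45908068-45926523 in GRCm38), changed side during differentiation. At day 0 the Abcb10-null libraries (55.3, 54.0, 48.1, 52.6 and 52.9 CPM) all lay above the WT libraries (37.9, 34.5, 43.9, 42.2 and 34.4). Day 2 values overlapped, from 38.1 to 45.8 in WT and 28.6 to 44.7 in Abcb10-null. At day 5 every WT library (76.7, 75.9, 66.2, 80.6 and 65.1) was above every Abcb10-null library (40.8, 38.6, 35.9, 34.8 and 33.6). The difference was 0.44 (SE 0.08, adjusted p = 0.000308) at day 0, -0.24 (SE 0.15, adjusted p = 0.229) at day 2 and -0.999 (SE 0.11, adjusted p = 2.56e-05) at day 5. WT cells gained 1.89-fold from day 0 to day 5 (log2 fold change 0.92, SE 0.11, adjusted p = 4.7e-06) while Abcb10-null cells lost 1.42-fold (log2 fold change -0.51, SE 0.08, adjusted p = 5.1e-05), and these changes differed by -1.42 (SE 0.13, adjusted p = 4.99e-08). The calls at days 0 and 5 and this difference between the changes held in each fit that left out 1 library and in each of the 6 other settings.

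Both ferritin chains rose from day 0 to day 5 in both genotypes. For the heavy chain, *Fth1* (ENSMUSG00000024661, chr19:9980598-9985098 in GRCm38), WT libraries held 184, 186, 195, 191 and 203 CPM at day 0, 314, 302, 306, 297 and 318 at day 2 and 417, 559.6, 419, 464 and 385 at day 5. Abcb10-null libraries held 189, 187, 169, 174 and 188 at day 0, 281, 268, 229.9, 236 and 219.6 at day 2 and 408, 287, 287, 337 and 272 at day 5. The mRNA rose in both genotypes, 2.34-fold in WT (log2 fold change 1.23, SE 0.11, adjusted p = 3.23e-07) and 1.76-fold in Abcb10-null cells (log2 fold change 0.82, SE 0.10, adjusted p = 2.94e-06). Abcb10-null against WT gave -0.37 (SE 0.11, adjusted p = 0.0205) at day 2, where no libraries overlapped, and -0.51 (SE 0.14, adjusted p = 0.0128) at day 5, where 1 Abcb10-null library did. The day 2 call was lost without WT day 2 replicate 1 or Abcb10-null day 2 replicate 3 or 4 (adjusted p up to 0.0519) and without the filter on low counts (0.153). The gap in the change from day 0 to day 5, -0.40 (SE 0.15, adjusted p = 0.0452), was lost in 13 of 20 fits that left out 1 library (up to 0.0875) and without the filter (0.208).

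For the light chain, *Ftl1* (ENSMUSG00000050708, chr7:45457944-45459884 in GRCm38), Abcb10-null libraries began lower, at 765, 765, 786, 805 and 755 CPM against 1035, 1085, 894, 886 and 995 in WT, with no overlap (log2 fold change -0.34, SE 0.06, adjusted p = 0.000308; adjusted p = 0.199 in the fit over all 30 libraries). Day 2 levels were 836 ± 116 and 919 ± 111 CPM (mean ± SD, n = 5), with log2 fold change -0.19, SE 0.13, adjusted p = 0.292. At day 5 the Abcb10-null libraries held 2232, 1849.8, 1794, 2253 and 3373 CPM and the WT libraries 1488, 979, 1542, 1409.6 and 2379. WT replicate 5 was the highest of its group and lay among the Abcb10-null libraries, and the others lay below them. *Ftl1* rose 2.98-fold from day 0 to day 5 in Abcb10-null cells (log2 fold change 1.57, SE 0.14, adjusted p = 5.84e-08) and 1.59-fold in WT (log2 fold change 0.67, SE 0.18, adjusted p = 0.00461), and the rise was larger in Abcb10-null cells by 0.91 (SE 0.24, adjusted p = 0.00519). The day 5 difference itself, 0.56 (SE 0.22, adjusted p = 0.0599), did not pass the threshold, while it was 0.75 (adjusted p = 0.00789) without WT day 5 replicate 5 and also passed by DESeq2, with a replicate block and in the fit over all 30 libraries. *Ftl1* exons share 26.5% of their bases with *Gm10252* on the opposite strand (0.137 CPM) and 8.13% with *Gm22133* on the same strand (0.0 CPM). Other ferritin copies in the table reached at most 1.52 CPM on average (*Ftl1-ps1*), so few assigned counts stood on them.

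*Ncoa4* (ENSMUSG00000056234, chr14:32159865-32179855 in GRCm38), the ferritin cargo receptor, rose in both genotypes. WT libraries held 66.0, 67.8, 69.5, 73.0 and 70.3 CPM at day 0 and 175, 159.8, 169, 168 and 119.8 at day 5, and Abcb10-null libraries 98.1, 86.5, 89.4, 98.7 and 92.0 at day 0 and 193, 176, 158, 187 and 211 at day 5. Only at day 0 were the genotypes fully apart, with Abcb10-null higher (log2 fold change 0.42, SE 0.06, adjusted p = 5.43e-05). At day 2 the Abcb10-null libraries were spread from 69.5 to 182 CPM, and the higher level there (log2 fold change 0.58, SE 0.21, adjusted p = 0.0491) was lost in 9 of 10 fits that left out 1 library (adjusted p up to 0.132). The remaining fit, without Abcb10-null day 2 replicate 2, the library at 69.5 CPM, gave 0.74 (0.00175). The rise from day 0 to day 5 was 2.28-fold in WT and 2.00-fold in Abcb10-null cells, both called (1.19 and 1.00 on the log2 scale, adjusted p = 3.93e-07 and 3.16e-08). Their difference was -0.18 (SE 0.13, adjusted p = 0.32), and -0.28 (0.0457) without WT day 5 replicate 5.

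**Figure D2:**
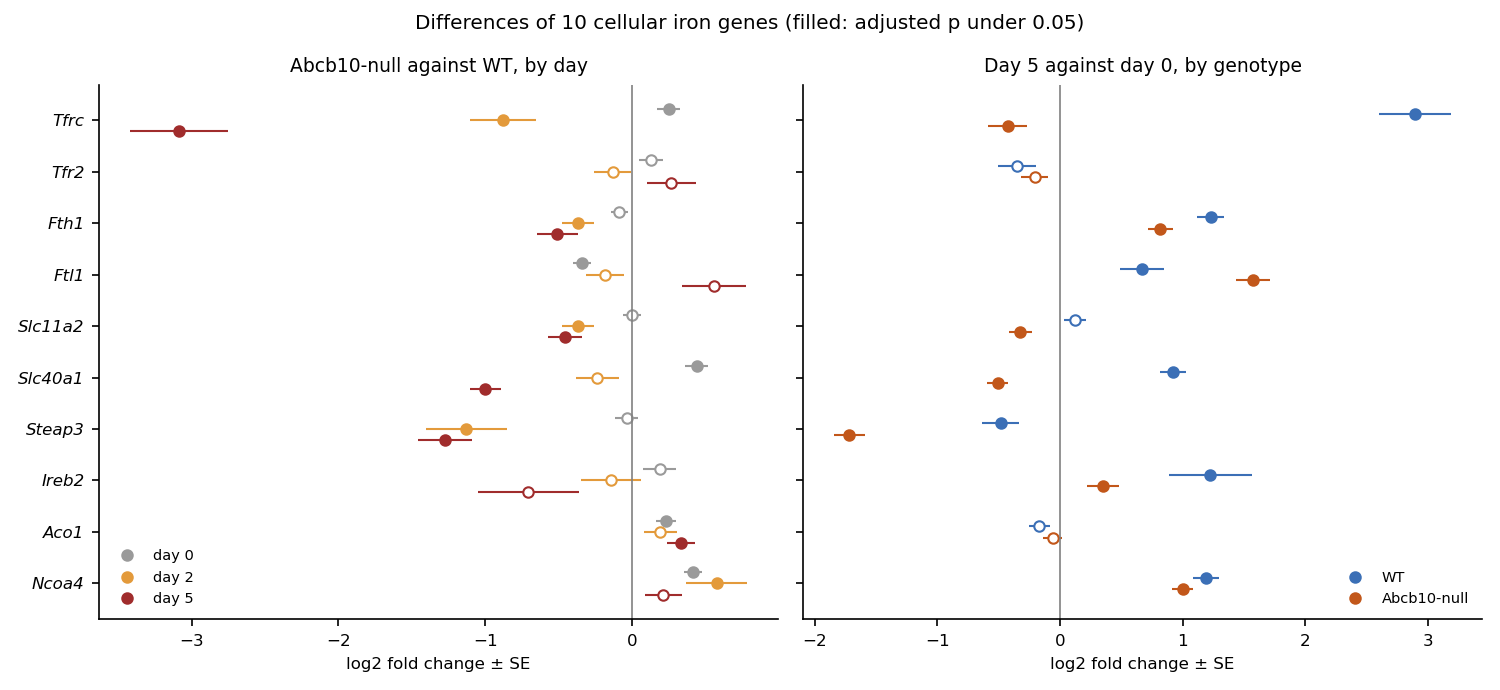
Log2 fold changes (points) with their standard errors (lines) of the 10 members, in Abcb10-null against WT at days 0, 2 and 5 (left) and in day 5 against day 0 within each genotype (right). Filled points have an adjusted p under 0.05 and open points do not. Tfrc at day 5 lies farthest from 0 at -3.09, and Tfrc and Slc40a1 rose in WT and fell in Abcb10-null cells.

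Of the iron regulatory proteins, *Aco1* (ENSMUSG00000028405, chr4:40143081-40198338 in GRCm38; IRP1, which acts as the cytosolic aconitase when it carries its iron-sulfur cluster) was higher in the Abcb10-null libraries both before DMSO and on day 5. At day 0 they held 111, 124, 110.0, 129 and 113 CPM against 94.2, 109, 102, 97.8 and 94.7 in WT, and at day 5 105, 114, 113, 105 and 124 against 91.8, 75.5, 90.6, 87.6 and 97.3. Neither day had overlapping libraries. The differences were 0.23 (SE 0.07, adjusted p = 0.0104) and 0.33 (SE 0.10, adjusted p = 0.0155), with 0.19 (SE 0.11, adjusted p = 0.199) at day 2. The day 0 call was lost in the fit over all 30 libraries (adjusted p = 0.0859) and the day 5 call without the filter on low counts (0.286).

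*Ireb2* (ENSMUSG00000032293, chr9:54863789-54912530 in GRCm38; IRP2, which is degraded when iron is plentiful) spread widely among the WT libraries of day 5, with an SD of 66.4% of the mean, more than any other member had in any group. They held 109.8, 328, 103, 166 and 68.2 CPM, where Abcb10-null libraries held 124, 103, 98.8, 70.7 and 85.1. WT replicate 2 stood at 328 CPM and the other WT libraries, at 68.2 to 166, overlapped with the Abcb10-null libraries. Abcb10-null against WT gave -0.71 (SE 0.34, adjusted p = 0.12) at day 5. It was -0.24 (adjusted p = 0.428) without WT day 5 replicate 2, and -0.91 (0.0293) without replicate 5, the lowest of its group. With all libraries kept, it passed without the filter on low counts and in the fit over all 30 libraries. *Ireb2* rose from day 0 to day 5 in WT (log2 fold change 1.22, SE 0.34, adjusted p = 0.00558; 0.75 and adjusted p = 0.00534 without WT day 5 replicate 2) and in Abcb10-null cells (log2 fold change 0.35, SE 0.13, adjusted p = 0.0281). The latter call was lost without Abcb10-null day 0 replicate 1, 2 or 4 or day 5 replicate 1 or 2 (up to 0.0942), and also without the filter on low counts, with a replicate block and in the fit over all 30 libraries (up to 0.277). The difference between these changes was -0.87 (SE 0.39, adjusted p = 0.0923), -1.08 (0.0159) without WT day 5 replicate 5 and -0.39 (0.289) without replicate 2.

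Over the days of DMSO, more members rose than fell in WT. From day 0 to day 2, 5 of 10 rose (*Tfrc*, *Fth1*, *Steap3*, *Ireb2* and *Ncoa4*) and 1 fell (*Aco1*), against 31.5% and 30.7% of all genes. From day 2 to day 5, 5 rose (*Tfrc*, *Fth1*, *Ftl1*, *Slc40a1* and *Ncoa4*) and 1 fell (*Steap3*), against 17% and 16.4%. From day 0 to day 5, 6 rose (*Tfrc*, *Fth1*, *Ftl1*, *Slc40a1*, *Ireb2* and *Ncoa4*) and 1 fell (*Steap3*), against 36.5% and 34.7%, with a median of 0.79 where all genes had 0.02. These comparisons share their day 0, 2 or 5 libraries. The early calls of *Ireb2* (0.45, SE 0.17, adjusted p = 0.0384) and *Aco1* (-0.23, SE 0.07, adjusted p = 0.0147) were the less stable when 1 library was left out: *Ireb2* lost it without WT day 0 replicate 1, 2 or 3 or day 2 replicate 3 or 5 (up to 0.107), and *Aco1* without WT day 2 replicate 1 or 3 (up to 0.092). *Ireb2* also lost it in the fit over all 30 libraries and with a replicate block (up to 0.148), and *Aco1* without the filter on low counts (0.0561). *Steap3* and *Ncoa4* lost their early calls in the fit over all 30 libraries (0.0827 and 0.0558). Without WT day 5 replicate 5, *Tfr2* and *Ireb2* also passed from day 2 to day 5, at -0.57 (0.00658) and 0.97 (0.0272; 0.31 and adjusted p = 0.341 without replicate 2), and *Aco1* from day 0 to day 5, at -0.21 (0.0363). *Aco1* passed there also without WT day 0 replicate 1 or 5, and *Tfr2* without WT day 0 replicate 3. From day 2 to day 5, *Tfr2* and *Ireb2* passed as well without the filter on low counts and in the fit over all 30 libraries.

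In Abcb10-null cells the counts of members lay near the shares of all genes called. From day 0 to day 2, 2 of 10 rose (*Fth1* and *Ncoa4*) and 2 fell (*Slc11a2* and *Slc40a1*), against 23.1% and 20.1% of all genes. From day 2 to day 5, *Ftl1* rose (log2 fold change 1.46, SE 0.18, adjusted p = 9.57e-05) and *Steap3* fell (log2 fold change -1.09, SE 0.28, adjusted p = 0.0089), against 14.4% and 16.6%. From day 0 to day 5, 4 rose (*Fth1*, *Ftl1*, *Ireb2* and *Ncoa4*) and 4 fell (*Tfrc*, *Slc11a2*, *Slc40a1* and *Steap3*), against 33.9% and 33.3%, with a median of -0.13 where all genes had 0.01. The 4 that fell are the uptake genes other than *Tfr2*, and the exporter, though 4 of 10 is near the share of all genes that fell. Among them the call of *Tfrc* was lost in several other fits, as given above. Between days 0 and 2, the fall of *Slc11a2* (-0.25, SE 0.09, adjusted p = 0.0353) was lost without any of 7 libraries (all of day 0 but replicate 3, and day 2 replicates 1, 3 and 4, up to 0.0967), and the rise of *Ncoa4* (0.58, SE 0.19, adjusted p = 0.026) without day 0 replicate 2, 3 or 5 or day 2 replicate 1 or 4 (up to 0.0693). *Tfrc* (-0.40, SE 0.16, adjusted p = 0.0529) passed when day 2 replicate 3 was left out (0.0152), and *Steap3* (-0.60, SE 0.25, adjusted p = 0.0665) when day 2 replicate 2 was (0.000444). *Fth1* from day 2 to day 5 (0.37, SE 0.13, adjusted p = 0.0507) passed without day 2 replicate 1 or 2, and *Tfr2* from day 0 to day 5 (-0.21, SE 0.11, adjusted p = 0.108) without day 5 replicate 3. With all libraries kept, these changes of *Tfrc*, *Steap3*, *Fth1* and *Tfr2* passed in 3, 4, 4 and 1 of the 6 other settings.

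The test of the difference itself, the interaction of genotype and day, called 4 members from day 0 to day 2, all with the lower change in Abcb10-null cells (*Tfrc*, *Slc11a2*, *Slc40a1* and *Steap3*), and none with the higher, where 10.8% and 12% of all genes were called lower and higher. From day 0 to day 5, 5 members had the lower change in Abcb10-null cells (*Tfrc*, *Fth1*, *Slc11a2*, *Slc40a1* and *Steap3*) and 1 the higher (*Ftl1*), against 14.7% and 16.8%. The members' median interaction was -0.25 and -0.42, and that of all genes 0.02 and -0.01. *Slc40a1* at day 2 had -0.63 (SE 0.16, adjusted p = 0.00973).

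Within a library, the balance of these mRNAs was compared as ratios of CPM per kilobase of the principal annotated transcript. The light to heavy ferritin ratio (*Ftl1* over *Fth1*) was 3.42, 1.68, 3.53, 2.92 and 5.93 in WT and 5.25, 6.19, 5.9951, 6.42 and 11.9 in Abcb10-null libraries at day 5. At day 2 it was 2.6002, 2.5957, 2.68, 3.46 and 3.02 in WT and 2.83, 2.50, 3.97, 3.88 and 3.28 in Abcb10-null libraries. Abcb10-null libraries thus had the higher ferritin ratio at day 5, apart from WT replicate 5, which lay within their range, and at day 2 the genotypes overlapped. At day 0 the WT mean was the higher (4.91 ± 0.556 against 4.11 ± 0.303, SD, n = 5). The ratio of receptor to heavy ferritin (*Tfrc* over *Fth1*) was 4.34, 2.79, 3.73, 3.60 and 1.23 in WT and 0.321, 0.833, 0.718, 0.354 and 0.534 in Abcb10-null libraries at day 5. WT libraries were all above, replicate 5 included, whereas at day 0 the Abcb10-null mean was the higher (1.26 ± 0.0935 against 0.995 ± 0.148, SD, n = 5). *Tfrc* over *Tfr2* reached 108, 134, 93.0, 111 and 19.5 in WT at day 5 and stayed between 4.15 and 11.5 in the Abcb10-null libraries of all days. These ratios are descriptions and were not tested.

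**Figure D3:**
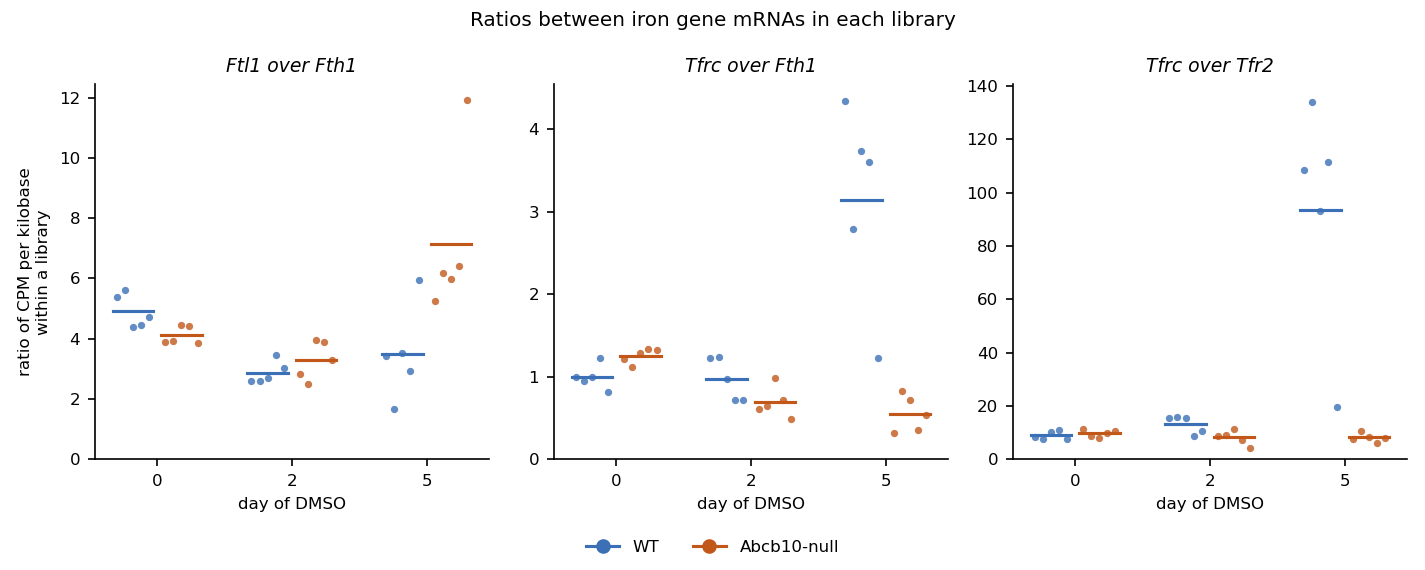
Ratios of CPM per kilobase of principal transcript within each library, for Ftl1 over Fth1, Tfrc over Fth1 and Tfrc over Tfr2, against the day of DMSO treatment. Points are libraries and bars are means of 5. At day 5 the first ratio is mostly higher in Abcb10-null libraries (5.25 to 11.9) than in WT, and the other ratios are lower in every Abcb10-null library.

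Per kilobase of principal transcript, *Ftl1* had the highest mean of the members in every group, from 801 ± 20.9 in Abcb10-null cells at day 0 to 2376 ± 657 CPM per kilobase at day 5. In WT at day 0, *Fth1* (207 ± 8.17) and *Tfrc* (205 ± 28.5) followed, closer to each other than their SDs (n = 5). Then came *Slc11a2* (38.1 ± 2.36), *Aco1* (25.9 ± 1.57), *Tfr2* (23.2 ± 1.89) and *Ncoa4* (20.7 ± 0.788). *Steap3* (13.8 ± 1.52), *Ireb2* (11.5 ± 2.26) and *Slc40a1* (11.4 ± 1.31) stood last. The neighbours from *Aco1* to *Ncoa4* and from *Steap3* to *Slc40a1* lay within the sum of their SDs of each other. By day 5 in WT, *Tfrc* (1524 ± 578) had come within the spread of *Ftl1* (1611 ± 526) and lay above it in each library but replicate 5. In Abcb10-null cells at day 5 it stood at 181 ± 55.8, below *Fth1* (342 ± 60.3), and *Steap3* (4.09 ± 0.774) was the lowest. The order depends on the length taken: over all annotated exons, *Fth1* in WT at day 0 had 55.3 and *Tfrc* 162 CPM per kilobase, and at day 5 *Tfrc* (1205) stood above *Ftl1* (1164).

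Of 27 other genes of cellular iron handling, 9, 11 and 12 passed the filter at days 0, 2 and 5. At day 0, 3 were higher and 3 lower in Abcb10-null cells, at day 2, 1 and 2, and at day 5, 3 and 1, where 19.7% and 16.2%, 14.9% and 16.9%, and 19.8% and 17.8% of all genes were called higher and lower, with medians of -0.04, -0.29 and -0.13. *Slc39a8* (ZIP8, an importer of zinc, manganese and iron) had the largest rise among them, at 217 to 314 CPM in Abcb10-null libraries at day 5 against 85.0 to 114 in WT (log2 fold change 1.44, SE 0.13, adjusted p = 7.82e-06). Its change from day 0 to day 5 differed between genotypes by 1.50 (SE 0.15, adjusted p = 1.85e-07). Its day 2 difference (0.52, SE 0.19, adjusted p = 0.0479) was lost in 8 of 10 fits that left out 1 library, and was 0.67 (0.00224) without Abcb10-null day 2 replicate 2, the lowest of its group. *Slc39a14* (ZIP14, a related importer) was lower at day 0 (-0.45, SE 0.15, adjusted p = 0.0235) and higher at day 5 (0.67, SE 0.23, adjusted p = 0.037), calls lost in 3 and 6 of 10 such fits. *Slc22a17* (the lipocalin 2 receptor) was higher at day 0 (0.91, SE 0.17, adjusted p = 0.000373), and *Mon1a*, a trafficking factor of ferroportin, was lower at day 2 (-0.63, SE 0.17, adjusted p = 0.0146).

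The cytosolic iron chaperones and a pair of ubiquitin ligase genes were named whatever their values. *Pcbp1*, which hands iron to ferritin, was lower in Abcb10-null cells at day 0 (-0.29, SE 0.08, adjusted p = 0.00868) and did not pass at day 2 (-0.29, SE 0.17, adjusted p = 0.204). It was higher at day 5 (0.50, SE 0.13, adjusted p = 0.00832), a call lost without the filter on low counts (0.0609). *Pcbp2* gave 0.02 (SE 0.09, adjusted p = 0.873), -0.61 (SE 0.21, adjusted p = 0.0408) and -0.41 (SE 0.32, adjusted p = 0.333) at the 3 days, the day 2 call lost in 8 of 10 fits that left out 1 library, with -0.88 (0.000508) without Abcb10-null day 2 replicate 2, the highest of its group. The change of *Pcbp1* from day 0 to day 5 differed between genotypes by 0.80 (SE 0.15, adjusted p = 0.000287). *Fbxl5*, the iron-sensing subunit of the ligase that marks IRP2 for degradation, gave 0.24 (SE 0.08, adjusted p = 0.0169), -0.10 (SE 0.11, adjusted p = 0.511) and -0.14 (SE 0.11, adjusted p = 0.332), the day 0 call lost without WT day 0 replicate 2, 3 or 5. *Herc2*, a ligase known to act on the NCOA4 protein, was lower at day 0 (-0.57, SE 0.11, adjusted p = 0.000386) and at day 5 (-0.44, SE 0.16, adjusted p = 0.0482; lost in 7 of 10 fits), with -0.62 (SE 0.26, adjusted p = 0.0848) at day 2. In the fit over all 30 libraries the day 0 calls of *Slc39a14*, *Pcbp1*, *Fbxl5* and *Herc2* were lost (adjusted p = 0.196, 0.19, 0.0893 and 0.067).

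Endocytosis and recycling carry transferrin and its receptor, and 11 genes of that route were all tested. At day 0, 4 were higher and 1 lower in Abcb10-null cells, at day 2, 4 and 0, and at day 5, 3 and 3, beside those same shares of all genes, 19.7% and 16.2%, 14.9% and 16.9%, and 19.8% and 17.8%. The medians were 0.12, -0.03 and -0.06. Higher at all 3 days were *Picalm* (clathrin assembly; 0.38, 0.64 and 0.42 on the log2 scale) and *Vps35* (retromer; 0.51, 0.55 and 0.40). The day 5 calls of both were lost without the filter on low counts (adjusted p = 0.18 and 0.214), and that of *Picalm* in 3 of 10 fits that left out 1 library. The day 0 call of *Picalm* was lost in the fit over all 30 libraries (0.0576). *Rab5a* (early endosomes) was higher at day 2 (0.88, SE 0.23, adjusted p = 0.012) and day 5 (0.75, SE 0.10, adjusted p = 0.000106), and *Exoc6*, the exocyst gene mutated in the hemoglobin-deficit mouse, at day 2 (0.60, SE 0.14, adjusted p = 0.00885). Lower at day 5 were *Snx3*, a sorting nexin of receptor recycling (-0.45, SE 0.12, adjusted p = 0.00825), *Rab11a* (recycling endosomes; -0.47, adjusted p = 0.0267, lost in 5 of 10 fits, after a higher level at day 0 of 0.28, adjusted p = 0.00565) and *Cltc*, the clathrin heavy chain (-1.14, SE 0.37, adjusted p = 0.0268). The change of *Rab11a* from day 0 to day 5 differed between genotypes by -0.74 (SE 0.17, adjusted p = 0.002), and its day 0 call was lost in the fit over all 30 libraries (0.151). For *Cltc* the WT libraries held 238, 936, 251, 405 and 207 CPM and the Abcb10-null libraries 242, 205, 195, 137 and 160.4. Without WT day 5 replicate 2, the library that was also high for *Ireb2*, the difference was -0.58 (adjusted p = 0.04), and the call was lost without Abcb10-null replicate 3, 4 or 5 (up to 0.0658).

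Of 5 further mRNAs known for an iron-responsive element, 4 were tested. At days 0, 2 and 5, 3, 2 and 3 of them were lower in Abcb10-null cells and none higher, with medians of -0.45, -0.64 and -0.74. Of all genes, 16.2%, 16.9% and 17.8% were lower and 19.7%, 14.9% and 19.8% higher, so none higher among 4 is near the share of all genes. The hairpin search found a match in 2 of the 5, and that of *Alas2* is shown because the gene links iron to heme.
Alas2 5′ UTR, across an exon junction, outer bases at chrX:150547458-150552149, plus strand: ttggttcgtcctCAGTGCagggcaacagg

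*Alas2*, the first enzyme of erythroid heme synthesis, was lower in Abcb10-null cells at every day, with -1.35 (SE 0.07, adjusted p = 4.62e-11) at day 0, -1.85 (SE 0.32, adjusted p = 0.00313) at day 2 and -1.37 (SE 0.18, adjusted p = 0.000114) at day 5. WT libraries held 4062 to 7218 CPM at day 5 and Abcb10-null libraries 1979 to 3159, and the ranges were apart at each day. It carries a 5′ hairpin, as do *Fth1*, *Ftl1* and *Slc40a1*, whose day 5 differences were -0.51, 0.56 and -0.999, the *Ftl1* value not past the threshold. A link between the hairpin and these mRNA levels was not tested.

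**Figure D4:**
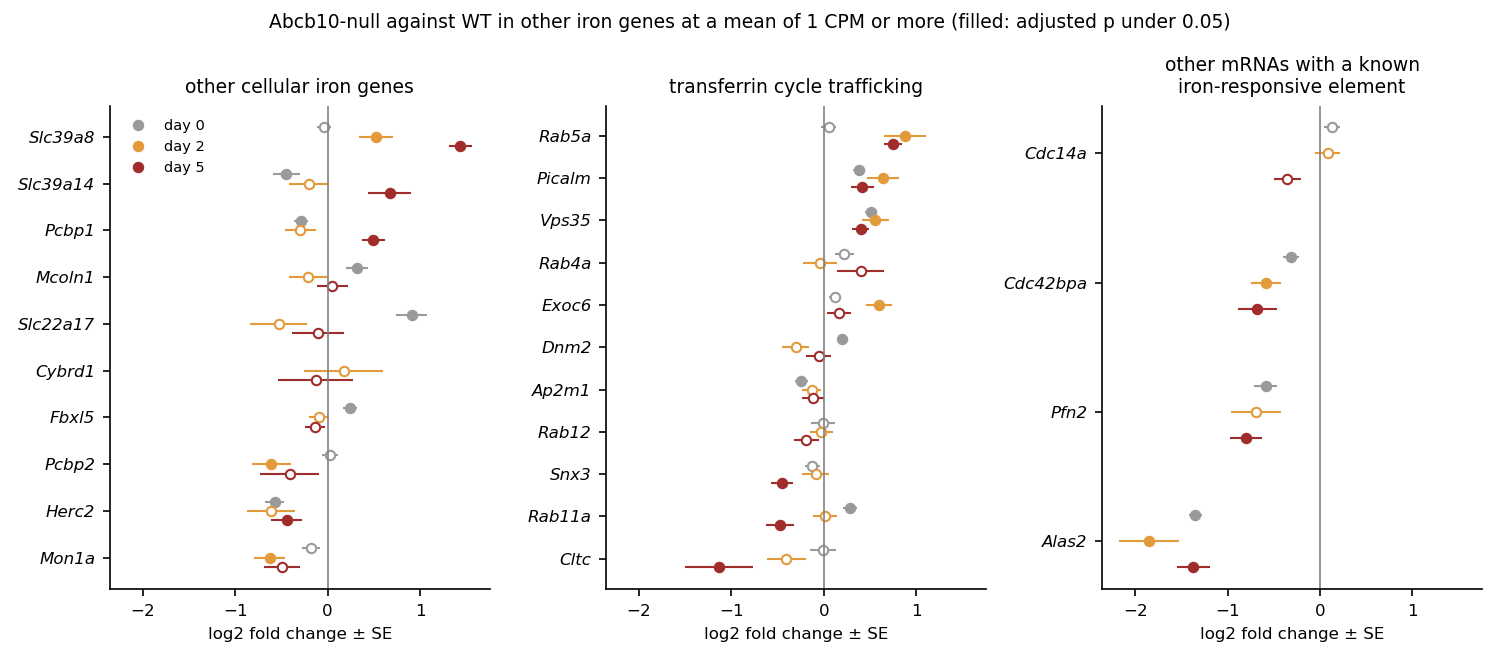
Log2 fold changes (points) with standard errors (lines) of Abcb10-null against WT at days 0, 2 and 5, for the genes of 3 further iron lists with a mean of at least 1 CPM that were tested at day 5, ordered by the day 5 value. Filled points have an adjusted p under 0.05. Slc39a8 lies highest at day 5 with 1.44 and Alas2 lowest with -1.37.

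The genes whose levels were most like each member's over the 30 libraries were found by Pearson's r of log2(CPM + 0.5) among 9239 protein-coding genes with a mean of at least 5 CPM. The libraries fall into 6 groups, so r follows the group means and is given as a description. *Fbxo30* (r = 0.895) and *Sox6* (0.887) were nearest to *Tfrc*, *Rcor2* (0.835) and *Vps16* (0.817) to *Tfr2*, *Suv39h1* (0.946) and *Ankle1* (0.930) to *Steap3*, and *Vsir* (0.865) and *Klf1* (0.823) to *Slc11a2*. *Dennd4c* (0.963) and *Ddhd1* (0.962) were nearest to *Fth1*, *Slc25a39* (0.929) and *AI837181* (0.909) to *Ftl1*, *Brox* (0.971) and *Mynn* (0.963) to *Ncoa4*, and *Arl4a* (0.883) and *Cemip2* (0.882) to *Slc40a1*. *Arfgef1* (0.927) and *Sos1* (0.907) came nearest to *Ireb2*, and *Tor3a* (0.928) and *Hnrnpk* (0.889) to *Aco1*.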

How the data were processed

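RNA of the 30 libraries was depleted of ribosomal and globin RNA (TruSeq Stranded Total RNA with Ribo-Zero Globin) before sequencing. The authors deposited raw counts of reads per gene, and the submitters' processing notes name cutadapt, STAR 2.6.1b, featureCounts 1.6.3 and GRCm38. The strand and multimapping settings of the counting are not given in the sources used here, so antisense and near-identical genes may share reads. Of 54532 genes, 9219 had no count, and 37 identifiers outside the annotation used here held 0.0116% of counts. No 2 libraries of a group were alike within counting noise (lowest chi-square over its degrees of freedom 6.48).

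CPM were computed from TMM-scaled library sizes. Each comparison was fitted on the groups it compares with edgeR 4.0.16 (R 4.3.3; filterByExpr, TMM, glmQLFit and glmQLFTest), with p-values adjusted by Benjamini and Hochberg's method across every gene in the fit and called below 0.05. The interaction fits held genotype, day and their product. The script was tested on simulated data. Alternatives were the size factors of DESeq2, all genes with at least 1 count, all 30 libraries in one fit, leaving out 6142 genes (globins, the mitochondrial genome and small RNAs), a replicate block, DESeq2 1.42.0, and leaving out each library.

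The members and lists were chosen with earlier results of these data known. Named beside the 10 members and *Abcb10* were, of the lists of other cellular iron genes and of transferrin cycle trafficking as 1 pool, up to 3 genes called in each direction in each genotype comparison with the largest change at a mean of at least 1 CPM. *Fbxl5*, *Herc2*, *Pcbp1*, *Pcbp2* and *Alas2* were named whatever their values. Some genes of the lists are not reported here. The likeness search used a pseudocount of 0.5. P-values measure the spread between libraries of a line, and the labels give no sequencing batch.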

Additional observations from a re-analysis of the deposited data

Results flagged for a closer look

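In 3 of the 60 pairs of a member and a group, 1 library lay apart from the other 4 by Dixon's criterion at the 95% level, which chance meets in about 1 of 20 groups. WT day 5 replicate 5 held 2485 CPM of *Tfrc*, where the others held 8212 to 9534, and 120 CPM of *Ncoa4*, where the others held 159.8 to 175. WT day 2 replicate 5 held 38.1 CPM of *Slc40a1*, where the others held 44.0 to 45.8.

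The change from day 0 differed between genotypes, by edgeR's interaction test, for 4 members at day 2: *Tfrc* (-1.07 on the log2 scale), *Slc11a2* (-0.31), *Slc40a1* (-0.63) and *Steap3* (-1.04). Of all genes, 10.8% were called lower and 12% higher there. At day 5 it differed for 6: *Tfrc* (-3.32), *Fth1* (-0.40), *Ftl1* (0.91), *Slc11a2* (-0.44), *Slc40a1* (-1.42) and *Steap3* (-1.23), against 14.7% lower and 16.8% higher. The *Slc11a2* call at day 2 held in 10 of 20 fits that left out 1 library, and the *Fth1* call at day 5 in 7 of 20.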

How the results depend on the processing

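Of 1300 member values recomputed with 1 library left out, 1187 kept their direction and side of the threshold, 70 lost the call, 17 gained it and 26 changed sign. Of 660 under the other 6 settings, 598 were kept, 26 lost the call, 29 gained it and 7 changed sign. With all 30 libraries in one fit, the count of members called was 1 in place of 5 for genotype at day 0, 3 in place of 6 from day 0 to day 2 in WT, and 4 in place of 2 from day 2 to day 5 in Abcb10-null cells. With all genes of at least 1 count it was 3 in place of 5 at day 2. The cause of these shifts was not tested. The shares of all genes called in these fits, and in those below, are not given here. A shift of the members thus cannot be told apart from a shift of all genes. With 1 library left out, counts ranged from 4 to 5 at day 0, 2 to 5 at day 2 and 6 to 9 at day 5 between genotypes. Within WT they ranged from 4 to 6 (days 0 to 2), 6 to 8 (days 2 to 5) and 7 to 9 (days 0 to 5), and within Abcb10-null cells from 2 to 5, 2 to 3 and 6 to 9. The interaction counts ranged from 3 to 4 at day 2 and 5 to 8 at day 5.

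Values that changed sign were not called in either direction. *Slc11a2* at day 0 was 0.0032 with all genes of at least 1 count, 0.0069 with all 30 libraries, 0.00079 with the replicate block, and -0.0475 to 0.0264 with 1 library left out. The interaction of *Aco1* at day 2 was -0.0088 with the size factors of DESeq2, -0.0034 with all genes of at least 1 count, -0.013 without globins, the mitochondrial genome and small RNAs, -0.011 by DESeq2, and -0.0741 to 0.0690 with 1 library left out. Left-out ranges across 0 were also seen for *Steap3* at day 0 (-0.101 to 0.0100), *Pcbp2* at day 0 (-0.0642 to 0.0907) and day 5 (-0.59 to 0.0525), and, from day 2 to day 5 in Abcb10-null cells, *Tfrc* (-0.18 to 0.11) and *Slc40a1* (-0.14 to 0.0141).

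The replicate block called 5, 4 and 7 members between genotypes at days 0, 2 and 5. Of 75 pairs of libraries with the same number, 8 deviated from their group means with a correlation over 0.1 (-0.26 to 0.43, median -0.0145). No pairing over all groups was thus seen, and the check cannot tell whether some of the libraries were paired. All members were counted deeply enough to be tested, the lowest single count being 129 (*Steap3*).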
